A study of Mus musculus with 48 samples.

Results

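Ribosome-bound RNA of cortical synaptosomes was compared with that of the whole cortical homogenate in 3-week-old (3w) mice. The comparison uses 8 of the 48 libraries of the series, a pellet of synaptosomes (SC_SYN) and a pellet of total homogenate (SC_TH) from each of 4 mice, numbered 187 to 190, and it is paired by mouse because both libraries of a number come from the same animal. All mice were wild-type C57BL/6JRj males and received no treatment. Synaptosomes (SYN) were collected at the interface of a sucrose density gradient. Lysates of SYN and of total homogenate (TH) were then spun through a sucrose cushion (SC) with cycloheximide, which holds ribosomes on their mRNA. For TH lysates alone, the methods describe homogenization with a needle and a centrifugation before the cushion. What part this step had in the differences between SC_SYN and SC_TH was not tested. RNA taken before the cushion (input) from the same 4 mice, and the pellets of 4 mice at 5 months (5m; the sample labels give 6 months) and of 4 mice at 18 months (18m), serve for comparison.

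Synaptosomes are pinched-off nerve terminals that reseal on tissue homogenization, often with a piece of the postsynaptic membrane attached. The preparation also carries free mitochondria, membrane vesicles and fragments of glial processes, so a transcript found in it need not come from a synapse. mRNAs are translated either on free ribosomes or on ribosomes docked to the endoplasmic reticulum (ER). The signal recognition particle directs the second kind to the ER membrane when a hydrophobic stretch, a signal peptide or a transmembrane helix, leaves the ribosome, whereas a tail-anchored protein exposes its only hydrophobic stretch after translation has ended. A ribosome pellet shows RNA that sediments with ribosomes. It holds other heavy particles too, including mitochondrial ribosomes and nuclear ribonucleoprotein that escaped earlier spins.

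Between 3058278 and 7119395 reads were counted on genes in the SC_TH libraries and between 5415274 and 6132944 in the SC_SYN libraries. Replicates differed by 2.31 to 27.2 times the counting variance over 12 pairs of libraries of the same kind, so no pair was a repeat of a single library. Protein-coding genes held 93.0% to 93.9% of the counts in SC_TH and 96.5% to 96.7% in SC_SYN, and mitochondrially encoded genes held 0.438% to 0.520% and 0.941% to 1.24%. Levels are given as CPM, the usual read count relative to library size, with library sizes scaled by TMM (trimmed mean of M-values). TMM factors were 1.22 to 1.23 in SC_TH and 0.818 to 0.848 in SC_SYN. Scaling by the plain library size instead moved the median log2 fold change over all genes by -0.547, so directions below hold relative to the TMM scale, and groups that change side are named as such.

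A difference between the pellets, taken as an adjusted p below 0.05 with edgeR (quasi-likelihood fit, mouse as a block), was called for 10464 of the 16630 genes that could be tested (62.9%). SC_SYN was higher for 5094 genes (30.6%) and lower for 5370 genes (32.3%), which became 3072 and 9015 under library size scaling. At least 2-fold differences were called higher for 3090 genes (18.6%) and lower for 2583 genes (15.5%). These became 2079 and 1021 with at least 10 counts required in every library, and 717 and 5251 under library size scaling. The CPM ranges of the 4 SC_SYN and the 4 SC_TH libraries did not overlap for 9002 genes (54.1%). Any list of genes has to be read against these shares, since most genes passed. The median log2 fold change was -0.05 over all genes. The quartiles lay at -0.64 and 0.75 and the outer 5% points at -3.45 and 1.52, so the lower tail was the longer one. By annotated class, 4522 of 13631 protein-coding genes were higher and 3991 lower. Of 793 long noncoding RNAs, 65 were higher and 397 lower, with a median of -0.93. Of 859 genes annotated as still to be checked by experiment, 786 were lower, with a median of -3.96. Pseudogenes leaned the other way, with 472 of 1204 higher and 123 lower, but their reads cannot be told apart from those of near-identical parent genes.

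The feature that separated coding genes most visibly was the place of a hydrophobic stretch in the encoded protein. This grouping was chosen after values were seen and is given as a description without a test. Other features followed the fold change too. Spearman rho over coding genes was 0.34 for N-terminal hydropathy, 0.25 for mean CPM, 0.22 for GC content and -0.20 for exonic length. Using coding sequences of GENCODE M21 (GRCm38) and the Kyte-Doolittle scale, 13583 nuclear coding genes were put in 4 classes. A gene belongs to the first class if a window of 10 residues within the first 35 has a mean hydropathy of at least 2.0, to the next if a window of 19 residues reaches this later in the protein, to the tail class if the earliest such window begins within 40 residues of the C terminus, and otherwise to the class without a segment. For 12 genes of different fate in the comparison, 30 bases are printed, 5′ to 3′ on the coding strand. They encode the most hydrophobic 10 residues within the first 35, or after residue 35 for Slc17a7, Vamp2 and Stx1a. For the genes without a segment, the later part was also searched but is not printed. Its highest 19-residue windows were 1.06 for Syn1, 0.57 for Snap25, 1.17 for Dlg4, 0.29 for Arc and 0.93 for H3f3b. Capitals mark codons with T at the second position, which encode the strongly hydrophobic residues phenylalanine, leucine, isoleucine, methionine and valine.
Segment near the N terminus, all higher in SC_SYN.
Gria1, residues 4 to 13, gene at chr11:57011387-57330244, plus strand: ATCTTTgccTTTTTCtgcaccggtTTTCTA
Cck, residues 5 to 14, gene at chr9:121489824-121495694, minus strand: GTAtgtCTGtgcGTGGTGATGgcaGTCCTA
Sst, residues 10 to 19, gene at chr16:23889573-23890958, minus strand: CTGgctgcgCTCtgcATCGTCCTGgctTTG
Tyrobp, residues 10 to 19, gene at chr7:30413760-30417585, plus strand: CTTCTGTTCCTTcctGTCCTCCTGactGTG
Segment later in the protein, higher in SC_SYN.
Slc17a7, residues 403 to 412, gene at chr7:45163949-45176142, plus strand: GTGgccATCtccTTCCTGGTCCTGgctGTG
Segment at the C terminus only, not called in either direction.
Vamp2, residues 102 to 111 of 116, gene at chr11:69088490-69092384, plus strand: ATCtgcgccATCATCCTCATCATCATCATC
Stx1a, residues 266 to 275 of 288, gene at chr5:135023482-135051100, plus strand: ATCATGATCATCATTtgctgtGTGATTCTG
No segment by the rule, with both directions and no call among them.
Syn1, residues 8 to 17, gene at chrX:20860511-20921004, minus strand: CTGtcggacagcaacTTCATGgccaatCTG
Snap25, residues 26 to 35, gene at chr2:136713453-136782428, plus strand: CTGgaaagcacccgtcgcATGCTGcagCTG
Dlg4, residues 1 to 10, gene at chr11:70016942-70047522, plus strand: ATGgactgtCTCtgtATAGTGacaaccaag
Arc, residues 22 to 31, gene at chr15:74669083-74672570, minus strand: gccgccaaacccaatGTGATCCTGcagATT
H3f3b, residues 21 to 30, gene at chr11:116021912-116027962, minus strand: CTGgccaccaaggcggctcggaaaagcgcg

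Of 2726 genes with a segment near the N terminus, 1942 (71.2%) were higher in SC_SYN and 220 (8.07%) lower, against 30.6% and 32.3% of all genes. The median log2 fold change of the class was 1.08, and its per-mouse medians were 1.08, 0.94, 0.98 and 1.06. Of 1276 genes with a later segment, 896 (70.2%) were higher and 111 (8.70%) lower, with a median of 0.96. The 125 genes with a segment in the tail alone had a median of 0.08, with 45 higher and 33 lower, and the 9456 genes without a segment had a median of -0.24, with 1618 (17.1%) higher and 3616 (38.2%) lower. Under library size scaling the medians were 0.53, 0.41, -0.46 and -0.79, so the tail class changed side and the order of the 4 classes stayed. The difference was also present before the cushion. In input, the per-mouse medians of the class with a segment near the N terminus averaged 0.90 ± 0.10 (SD, n = 4 mice), those with a later segment 0.85 ± 0.11, and those without -0.28 ± 0.06. Pellet minus input was 0.02 ± 0.07 for the class with a segment near the N terminus. Genes in none of the lists used below gave medians of 1.05, 0.95, 0.08 and -0.26 in the same order of classes. Taken over deciles of the coding genes ordered by N-terminal hydropathy, the median stayed between -0.24 and 0.06 in deciles 1 to 8 and reached 0.98 and 1.16 in deciles 9 and 10. Thresholds of 1.6 and 2.4 gave medians of 0.86 and 1.14 for the class with a segment near the N terminus. For the class with a later segment they gave 0.25 and 1.01, and at 1.6 its shares fell to 43.5% higher and 25.1% lower, so the values of this class depend on the threshold.

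**Figure D1:**
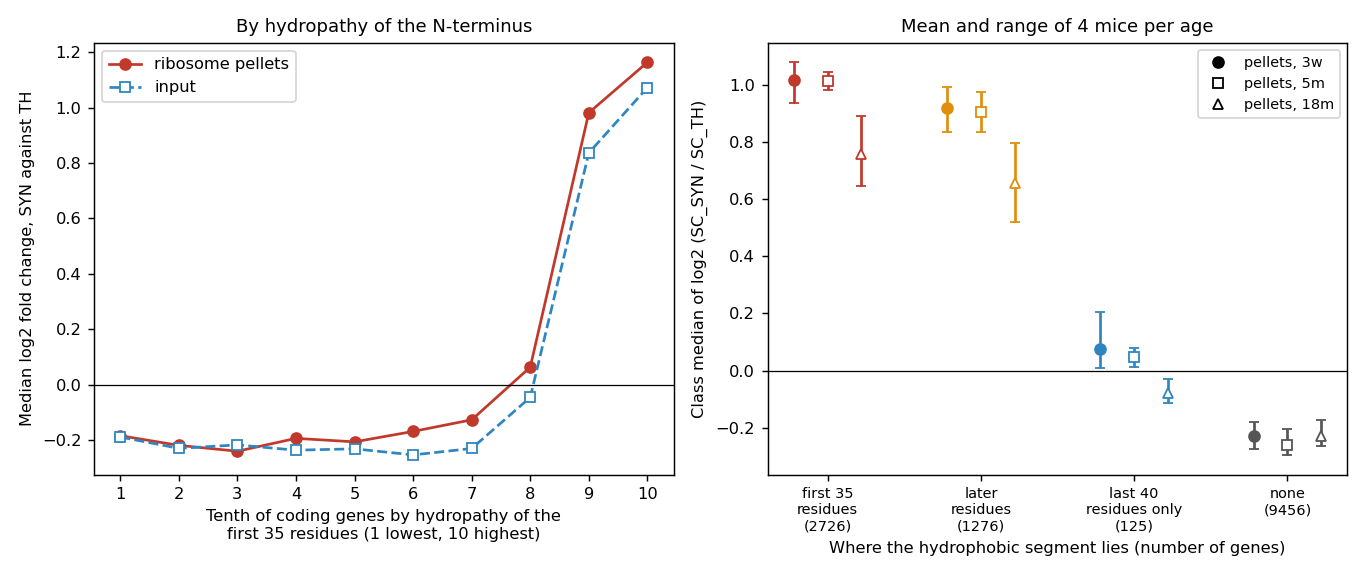
Left, median log2 fold change of SYN against TH (vertical axis) in deciles of coding genes ordered by the hydropathy of the first 35 residues (horizontal axis), for ribosome pellets (filled circles) and input (open squares), at 3w. Right, median log2 ratio of SC_SYN to SC_TH over the genes of each segment class, with the symbol at the mean of 4 mice and the bar from the lowest to the highest mouse, at 3w, 5m and 18m. Pellet medians lie near or below 0 up to decile 8 and reach 0.98 and 1.16 in deciles 9 and 10, and the classes with a segment near the N terminus or later lie near 1 at 3w.

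Receptors, channels and pumps sit in the membrane and are made at the ER. All 36 genes of the list of glutamate and GABA-A receptors were higher in SC_SYN, with a median log2 fold change of 1.24 and per-mouse medians averaging 1.22 ± 0.02 (SD, n = 4). Under library size scaling 32 of them stayed higher and the median was 0.69. Grin1 encodes the obligatory subunit of NMDA receptors. Its level was 2734, 2608, 2891 and 2542 CPM in SC_SYN of mice 187 to 190 and 718, 679, 791.4 and 726 CPM in SC_TH, with no overlap, and its log2 fold change was 1.89 ± 0.087 (SE). Gria1, an AMPA receptor subunit, was at 1182, 1715, 1561 and 1233 CPM in SC_SYN and at 479, 529, 449 and 475 CPM in SC_TH, a log2 fold change of 1.54 ± 0.106 with an adjusted p of 3.35e-09. Gabrd, the delta subunit of extrasynaptic GABA-A receptors, had a log2 fold change of 1.73 ± 0.128. The smallest values in the list were those of Cacng2 (stargazin, an auxiliary AMPA receptor subunit) at 0.55 ± 0.088 and of Gabra2 at 0.62 ± 0.158. Both calls were lost under library size scaling, where the values were 0.000992 and 0.07. Among voltage-gated channels and pumps, 38 of 39 genes were higher and none lower, with a median of 1.16. Cacna1d was the exception, with a log2 fold change of 0.06 ± 0.107 (adjusted p = 0.622) that became -0.48 under library size scaling.

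Secreted peptides showed the highest list median. Of 35 neuropeptide and secreted factor genes, 34 were higher, all of these by at least 2-fold, and the median was 1.71. Cck, which encodes the peptide cholecystokinin of cortical neurons, was at 780, 403, 635 and 685 CPM in SC_SYN and at 122, 116, 170 and 167 CPM in SC_TH. The groups lay apart, and the log2 fold change was 2.103 ± 0.188. Scg2, a granin of dense-core vesicles, had a log2 fold change of 1.96 ± 0.11. Igf1 was not called (0.39 ± 0.229, adjusted p = 0.147) and its libraries overlapped, at 6.09 to 9.40 CPM in SC_SYN and 4.33 to 7.27 CPM in SC_TH. Genes of ER translocation, folding and glycosylation followed the secreted factors, with 40 of 46 higher, 1 lower and a median of 1.35. Hspa5, the main Hsp70 chaperone of the ER lumen, was at 892, 1588, 1339 and 890 CPM in SC_SYN and at 334, 339, 259 and 294 CPM in SC_TH, a log2 fold change of 1.90 ± 0.162. Emc1, of the membrane protein insertase EMC, had a log2 fold change of 1.84 ± 0.0998, although its span overlaps Ubr4 on the other strand and reads were counted without strand. The members that did not follow included soluble proteins of the signal recognition particle. Srp72 was lower (-0.75 ± 0.162, adjusted p = 0.000671), and Srp54a had a value of -0.15 with an adjusted p of 0.598. Within this list the 28 genes with a segment near the N terminus had a median of 1.58, and the 8 without a segment had a median of 0.20.

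Genes of transmitter release split into opposite groups. Of 47 genes of synaptic vesicles and their fusion machinery, 21 were higher and 19 lower, and the median of -0.13 and the mean of 0.24 had opposite signs. Under library size scaling, 18 were higher and 27 lower. All 14 genes with a later hydrophobic segment and all 3 with a segment near the N terminus were higher, with medians of 1.33 and 1.35. The 4 tail-anchored genes had a median of -0.17 with 2 lower, and of the 26 genes without a segment 17 were lower and 4 (Syp, Syt5, Cplx2 and Rph3a) higher, with a median of -0.51. Syt5, Syngr3, Unc13b and Syn3 were named by the rule for list extremes, while the other vesicle genes described, in both paragraphs on them, were chosen after their values were seen. Slc17a7, the vesicular glutamate transporter VGLUT1 of cortical neurons, was at 3771, 3259, 4428 and 3922 CPM in SC_SYN and at 1264, 1219, 1324 and 1402 CPM in SC_TH, a log2 fold change of 1.56 ± 0.0965. The vesicle glycoprotein Sv2a had the same value, 1.56 ± 0.0913, and the calcium sensor Syt1 had 1.38. Snap25, a SNARE that is held on the plasma membrane by palmitoylation, was at 690, 1218, 1032 and 919 CPM in SC_SYN and at 1535, 1730, 1552 and 1642 CPM in SC_TH. All SC_SYN libraries lay below all SC_TH libraries, with a log2 fold change of -0.77 ± 0.125. Syn1, a phosphoprotein on the cytoplasmic face of vesicles, was lower by a similar amount (-0.54 ± 0.125), as was Syn2 (-0.72).

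The SNAREs anchored by their tails fell between. Vamp2, the vesicle SNARE synaptobrevin 2, was at 837, 793, 892 and 914 CPM in SC_SYN and at 859, 852, 934 and 879 CPM in SC_TH, with overlapping libraries and a log2 fold change of -0.04 ± 0.0785. Its plasma membrane partner Stx1a had a value of -0.13 ± 0.103 (adjusted p = 0.30) and was called lower under library size scaling, as was Vamp2. Vamp1 was lower (-0.72 ± 0.097). The largest decrease was that of Unc13b, a priming factor of the Munc13 family, from 72.9, 82.4, 74.0 and 81.2 CPM in SC_TH to 24.6, 31.3, 26.2 and 32.0 CPM in SC_SYN, a log2 fold change of -1.45 ± 0.11. Exceptions to the division were the vesicle proteins Syp and Syt5, both integral membrane proteins that were higher (1.58 ± 0.141 and 1.70 ± 0.118) although the window rule found no segment. Their highest window values of 1.99 and 1.89 missed the threshold of 2.0 by a small margin.

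**Figure D2:**
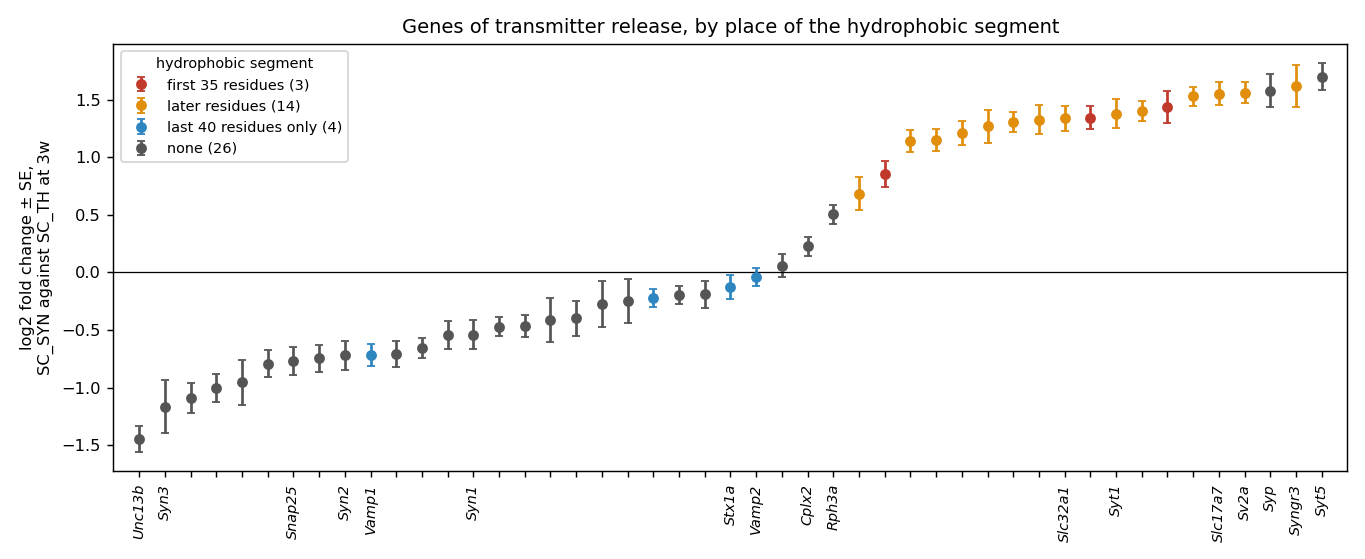
Log2 fold change of SC_SYN against SC_TH at 3w (vertical axis, bars are SE) for the 47 genes of transmitter release in ascending order, coloured by the place of the hydrophobic segment in the encoded protein, with names for genes described in the text. The 17 genes with a segment near the N terminus or later lie above 0, the 4 tail-anchored genes lie below 0, and most of the 26 genes without a segment lie below 0, apart from Syp and Syt5 at the upper end.

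At the active zone, where vesicles dock, 17 of 25 genes were higher and 4 lower, with a median of 0.49 that became -0.06 under library size scaling. The upper end held adhesion proteins that cross the membrane. Ptprs, a receptor phosphatase, had a log2 fold change of 1.53 ± 0.149, and Nrxn2, a neurexin, was at 2229, 1434, 2003 and 1962 CPM in SC_SYN and at 729, 634, 719 and 750 CPM in SC_TH, a log2 fold change of 1.41 ± 0.104. The lower end held cytosolic proteins. Cacnb4, the soluble beta subunit of calcium channels, was at -1.14 ± 0.127, and the liprin Ppfia2 was at 43.8 to 50.7 CPM in SC_SYN and 91.3 to 99.5 CPM in SC_TH. Erc2 and Lin7a, named because the count was small, were the others. Of the 9 genes with a segment near the N terminus or later, all were higher, while among the 16 without a segment 8 were higher and 4 lower.

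Postsynaptic scaffold and signalling genes, nearly all without a hydrophobic segment, moved both ways. Of 41 genes, 15 were higher and 14 lower, near the shares of 30.6% and 32.3% over all genes. The median of -0.04 was also near that of all genes (-0.05), so these values did not set the list apart. Under library size scaling 7 were higher and 26 lower. Ppp1r9b, which encodes the spine protein spinophilin, rose from 848, 817, 741 and 780 CPM in SC_TH to 1683, 2269, 2457 and 2039 CPM in SC_SYN, a log2 fold change of 1.40 ± 0.119. Camk2a, the alpha subunit of CaM kinase II, whose mRNA is known to lie in dendrites, was at 5048, 5371, 5501 and 6639 CPM in SC_SYN and at 2453, 2415, 2844 and 2677 CPM in SC_TH, a log2 fold change of 1.11 ± 0.11. Shank1, a scaffold with a dendritic mRNA chosen here after its value was seen, had 1.01 ± 0.136. Dlg4, which encodes PSD-95, was higher by 0.61 ± 0.106 with no overlap, a call that was lost under library size scaling (0.07). In contrast Homer1 was lower (-0.95 ± 0.112), with 122, 156, 154 and 148 CPM in SC_SYN and 262, 298, 255 and 304 CPM in SC_TH, and Camk2d was at -0.71. Among 32 genes with mRNAs reported in dendrites, 22 were higher and 6 lower, with a median of 0.84. The 24 of them without a hydrophobic segment had a median of 0.66 with 14 higher and 6 lower. Kif5a, a kinesin heavy chain, led this list with 6615, 7689, 7696 and 7184 CPM in SC_SYN and 1676, 1773, 1613 and 1548 CPM in SC_TH, a log2 fold change of 2.14 ± 0.0964. Cpeb1, a regulator of cytoplasmic polyadenylation, was lowest at -1.46 ± 0.147.

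Camk2a, Gria1 and Dlg4 were also assayed by qPCR in the study, as was Arc, with H3f3b as the reference gene. Ldhb was its reference gene for transcripts of ribosomal proteins, described as stable between fractions and ages. That qPCR used total RNA of the fractions, while the values here are of ribosome pellets. Arc, an activity-regulated gene with a dendritic mRNA, was at 276, 156, 261 and 499 CPM in SC_SYN and at 156, 99.7, 193 and 267 CPM in SC_TH. The groups overlapped, although SC_SYN was higher within each of the 4 mice, and the log2 fold change was 0.70 ± 0.124 (adjusted p = 0.000112), against an adjusted p of 0.0849 without the mouse as a block. The histone gene H3f3b was at 91.4, 117, 101 and 94.0 CPM in SC_SYN and at 110, 113, 99.4 and 105 CPM in SC_TH, with a log2 fold change of -0.09 ± 0.105 and an adjusted p of 0.47. Ldhb, a lactate dehydrogenase subunit, was higher in SC_SYN (0.61 ± 0.147), with 594, 966, 778 and 619 CPM against 482, 521, 427 and 479 CPM. Under library size scaling Ldhb stood at 0.06 and Arc at 0.15 without a call, and H3f3b was called lower at -0.64.

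**Figure D3:**
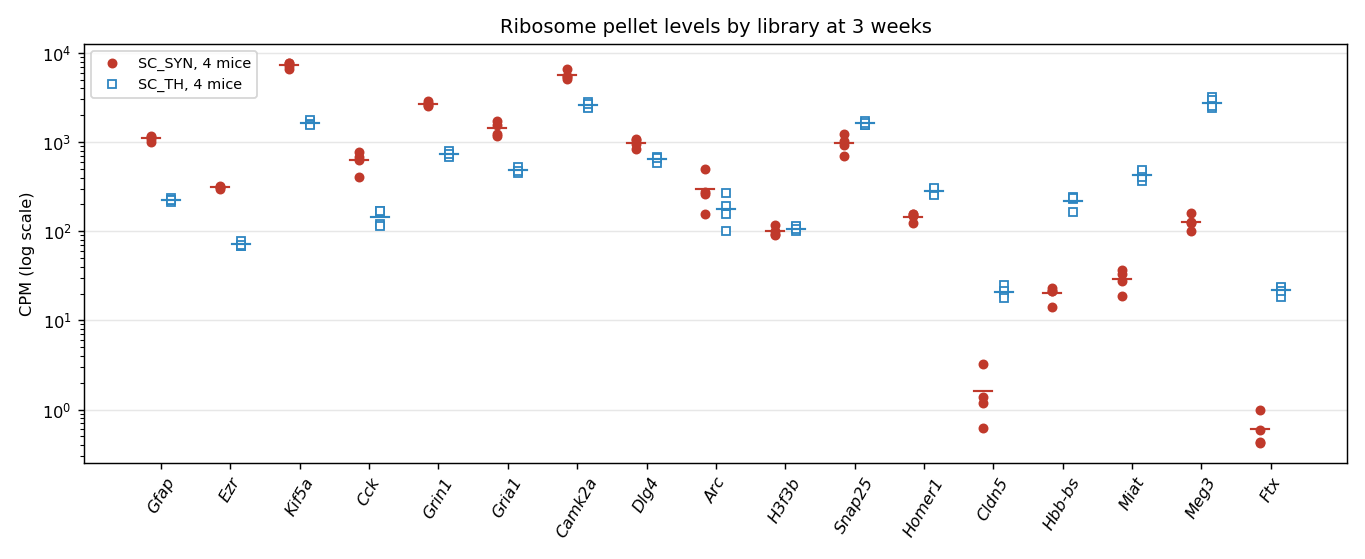
Levels in the 4 SC_SYN (filled circles) and the 4 SC_TH libraries (open squares) at 3w in CPM on a log axis for 17 genes named in the text, with lines at the means. Circles lie above squares without overlap for genes from Gfap to Dlg4, overlap them for Arc and H3f3b, and lie below them from Snap25 to Ftx.

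Genes of the cytosolic ribosome were higher almost throughout, although all but 2 of them fell in the class without a hydrophobic segment. Of 48 genes of the large subunit 46 were higher and none lower, with a median of 1.08, and of 33 genes of the small subunit 31 were higher and none lower, with a median of 1.19. Members without a call include Rpl36al, Rps27l and Rps15a. Rpsa was at 172, 196, 211 and 168 CPM in SC_SYN and at 59.8, 67.2, 60.6 and 64.2 CPM in SC_TH, a log2 fold change of 1.57 ± 0.126. Rplp1, of the stalk that recruits elongation factors, varied more between mice, at 121, 65.6, 75.5 and 114 CPM against 26.4, 23.1, 38.3 and 31.9 CPM, with a log2 fold change of 1.62 ± 0.20. Ribosomal protein genes have many processed pseudogenes, and reads shared with them make single values uncertain. Translation factors did not move with the ribosome as a group. Of 48 genes, 11 were higher and 5 lower with a median of 0.06. The 5 were Eif2b3, Eif4a2, Eif4e, Eif4g3 and Etf1. Under library size scaling 6 of the 48 were higher and 33 lower, and the median was -0.49. The elongation factor Eef1a1 was higher, at 1131, 1412, 1260 and 1101 CPM against 538, 578, 557 and 549 CPM, with a log2 fold change of 1.13 ± 0.106, and Eef1b2, overlapped by Ndufs1, followed at 1.16. Eif2b3, a subunit of the exchange factor of eIF2, was lower (-0.92 ± 0.203), a call that was lost after thinning to equal totals (-0.68, adjusted p = 0.0573), and the call of the helicase Eif4a2 (-0.54) was lost without mouse 187 and without mouse 190.

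All 13 mitochondrially encoded mRNAs, which are translated on mitochondrial ribosomes, were higher in SC_SYN by at least 2-fold, with a median of 1.58. The per-mouse medians were 1.94, 1.73, 0.88 and 1.57, so mouse 189 lay below the other 3. The list median was 1.34 without mouse 187 and 1.84 without mouse 189, and 9 of 13 genes stayed called under library size scaling. The call of mt-Atp8 was lost without mouse 187 or 188. mt-Nd3, a subunit of complex I, was at 13.1, 22.1, 17.3 and 12.8 CPM in SC_SYN and at 3.63, 3.76, 4.16 and 2.13 CPM in SC_TH, a log2 fold change of 2.22 ± 0.443. The lowest member, mt-Nd5, had 1.03 ± 0.308. Nuclear genes for subunits of the respiratory chain, translated in the cytosol, were higher to a smaller degree, with 53 of 76 higher, none lower and a median of 0.55. Under library size scaling their median was -0.000323, with 17 higher and 12 lower. Cox6a1 led with 1.54 ± 0.228, from 76.3, 60.2, 97.4 and 84.7 CPM in SC_TH to 351, 108, 236 and 296 CPM in SC_SYN. Nuclear genes for mitochondrial ribosomal proteins gave 10 higher and 7 lower of 76, with a median of 0.08 that was -0.47 under library size scaling.

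RNAs that stay in the nucleus were mostly lower in SC_SYN. Of 20 nuclear long noncoding RNAs, 16 were lower, all by at least 2-fold, and 1 was higher, with a median of -2.38. The summed level of the list was 1272 to 1929 CPM in SC_SYN and 11885 to 15261 CPM in SC_TH. Meg3, an imprinted noncoding RNA, was at 101, 125, 161 and 125 CPM in SC_SYN and at 3195, 2923, 2408 and 2561 CPM in SC_TH, a log2 fold change of -4.44 ± 0.17. Miat, an RNA of subnuclear bodies, was lower by a similar ratio (-3.89 ± 0.162), and Ftx, near the X-inactivation centre, was lowest at -5.13 ± 0.249 from 0.416 to 0.979 CPM against 18.4 to 23.9 CPM, on a mean of 3 counts in SC_SYN, and other genes overlap its span. Malat1, of nuclear speckles, fell from 8574, 9282, 6716 and 7176 CPM to 717, 1255, 1070 and 762 CPM (-3.09 ± 0.243). Pantr1, a noncoding RNA next to Pou3f3, was the member that was higher (1.08 ± 0.171), and Gas5, a host of small nucleolar RNAs that is also found on ribosomes, was not called (0.52, adjusted p = 0.0744), although it was without mouse 187 and in the 3w libraries alone. Of 30 small structural RNAs, many made by polymerase III, 11 could be tested, with 7 lower and 2, the signal recognition particle RNA genes Rn7s1 and Rn7s2, higher. The median of -2.17 rests on few counts, with per-mouse medians from -1.59 to -0.46, and became -1.20 without mouse 189 and -0.83 with at least 10 counts in every library.

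mRNAs of nuclear proteins were lower as well, to a smaller degree. Of 39 genes for SR proteins and splicing regulators, 33 were lower and none higher, with a median of -0.73. The 6 genes without a call were at values between -0.57 and 0.20. Nktr was lowest at -2.54 ± 0.138, from 162, 171, 141 and 133 CPM in SC_TH to 22.7, 32.9, 24.1 and 24.6 CPM in SC_SYN, followed by Pnisr at -2.47. Of 37 cortical neuron transcription factors 23 were lower and 4 (Lhx2, Nfia, Pou3f3 and Nfix) higher, with a median of -0.44. Foxp2, of deep-layer neurons, was at -1.52 ± 0.202, and Lhx2, which progenitors and glia also express, was highest at 1.04 ± 0.181. Of 25 immediate early genes 17 were lower and 3 higher, with a median of -0.53. The 3 were Nptx2 (1.82 ± 0.12), a secreted pentraxin, the growth factor Bdnf (1.24) and Arc. The transcription factor Egr1 was lowest at -0.98 ± 0.174, although its libraries overlapped because mouse 190 was at 226 CPM in SC_SYN and mouse 188 at 193 CPM in SC_TH. Of 28 replication-dependent histone genes 8 were higher and none lower (median 0.32), against 1 and 3 under library size scaling (median -0.23).

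Cytoskeletal and housekeeping mRNAs lay near the middle of the distribution. Of 34 neuronal cytoskeleton genes 14 were higher and 8 lower, with a median of 0.11 that was -0.44 under library size scaling and -0.02 when at least 10 counts were required in every library. The neurofilament gene Nefm was lowest (-0.82 ± 0.0814), with 106, 126, 107 and 126 CPM against 196, 218, 201 and 202 CPM, and the antisense span of the more abundant Nefl overlaps it. Of 54 proteasome and chaperone genes 1 (Psmb6) was higher and 10 lower, with a median of -0.06, and 45 were lower under library size scaling. Genes of immature neurons and outgrowth divided by their hydrophobic segment. Their 13 genes with a segment near the N terminus had a median of 1.19 with 10 higher, and the 14 without had -0.28 with 8 lower and 1 (Tubb2b) higher. L1cam, an adhesion protein, was highest at 1.92 ± 0.0895, and Dcx, a microtubule protein of young neurons, lowest at -1.52 ± 0.177. The median of the whole list was 0.13, and -0.42 under library size scaling.

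**Figure D4:**
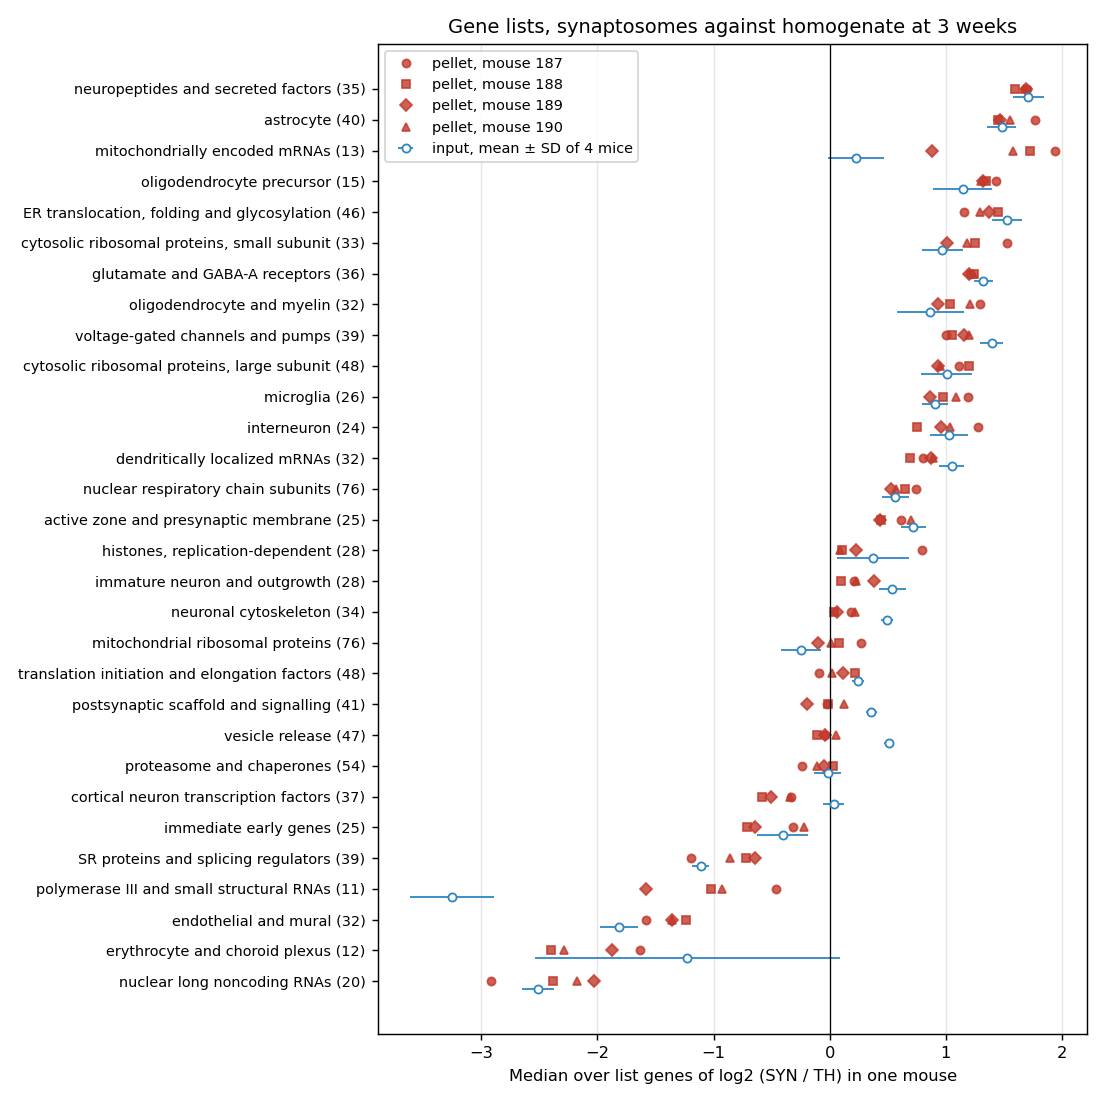
Median over the genes of each list of the log2 ratio of SYN to TH within a mouse (horizontal axis), for ribosome pellets of 4 mice at 3w (filled symbols, 1 shape per mouse) and for input as mean ± SD of the same mice (open circles). The number of genes tested is in brackets, and lists are ordered by the mean of the pellets. Neuropeptides lie highest at 1.66, nuclear long noncoding RNAs lowest at -2.38, and input lies right of the pellets for vesicle release and postsynaptic lists and left of them for mitochondrially encoded mRNAs.

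Markers of cells other than neurons were among the strongest differences. Both fractions come from the cortex of the same mice, so these differences do not show numbers of cells. In such bulk samples, the share of fragments of a cell type and the RNA per fragment cannot be told apart. Of 40 astrocyte markers all but Id3 (39) were higher in SC_SYN, with a median of 1.55 and a summed level of 45573 to 52913 CPM in SC_SYN against 16097 to 17304 CPM in SC_TH. Gfap, the intermediate filament of astrocytes, was at 1089, 1179, 1150 and 1009 CPM in SC_SYN and at 234, 214, 223 and 224 CPM in SC_TH, with a log2 fold change of 2.31 ± 0.11. Ezr, which links actin to the membrane in fine astrocyte processes, had 2.14 ± 0.11 and the glycogen regulator Ppp1r3c 2.16 ± 0.107. The 15 astrocyte markers without a hydrophobic segment had a median of 1.84, so this list did not follow the division of coding genes by segment. Of 32 oligodendrocyte and myelin genes 27 were higher and 3 lower, with a median of 1.12 and 12548 to 15146 CPM in sum against 5531 to 6647 CPM. Mag, a myelin adhesion protein, was at 1259, 870, 914 and 906 CPM in SC_SYN and at 289, 251, 283 and 212 CPM in SC_TH (1.92 ± 0.0953), and Bcas1, of newly formed myelinating cells, was at 1.98 ± 0.159. The 3 lower ones were Aspa (-0.74, adjusted p = 0.0363), Ermn (-0.63) and the transcription factor Sox10. The call of Aspa was lost without mouse 187, 188 or 189 and that of Ermn without mouse 187, and the value of Ermn turned to 1.07 when trends on GC content and length were removed.

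Markers of oligodendrocyte precursors gave 13 of 15 higher and none lower (median 1.33, 3104 to 3568 CPM in sum against 1153 to 1258 CPM), led by C1ql1 at 2.07 ± 0.229. Microglial markers gave 19 of 26 higher and none lower (median 1.15, 961 to 1163 CPM against 416 to 486 CPM). Aif1 was at 16.4, 30.3, 23.3 and 16.7 CPM in SC_SYN and at 5.63, 4.89, 3.81 and 3.73 CPM in SC_TH (2.26 ± 0.268), and the receptor adaptor Tyrobp was at 2.23 ± 0.23. Blood vessels went the opposite way. Of 32 endothelial and mural genes 19 were lower and 8 higher, with a median of -1.60, which was -0.46 when at least 10 counts were required in every library. Cldn5, the tight junction claudin of brain endothelium, was at 3.27, 1.17, 0.624 and 1.38 CPM in SC_SYN and at 24.7, 20.5, 21.1 and 17.8 CPM in SC_TH (-3.75 ± 0.361). Acta2, of smooth muscle, was at 0 CPM in 3 SC_SYN libraries and at 1.04 to 1.88 CPM in SC_TH. The summed level of the list was nevertheless higher in SC_SYN (1953 to 2551 CPM against 1205 to 1456 CPM), since Sparc (1.56 ± 0.111) and Bsg (1.30 ± 0.129) carry most of it and are also expressed in other brain cells. Of 12 erythrocyte and choroid plexus genes 11 were lower and 1 (Enpp2) higher, with a median of -2.16 and 864 to 1427 CPM in sum against 1373 to 2247 CPM. The globin gene Hbb-bs was at 23.1, 14.3, 21.4 and 21.2 CPM in SC_SYN and at 244, 164, 232 and 235 CPM in SC_TH (-3.45 ± 0.157). No member of these 6 lists was at 0 in all libraries of a group. What part these cells had in the differences of genes that they share with neurons was not tested.

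Interneuron markers divided by where the protein goes. Of 24 genes 16 were higher and 7 lower, with a median of 1.15. The 10 with a segment near the N terminus, which include the peptides Sst and Cck and the secreted glycoprotein Reln, had a median of 1.70 and all were higher, as were the 5 with a later segment (1.11). The 8 without a segment had a median of -0.56 with 6 lower and 1 (Cplx3) higher. The peptide Sst, chosen with the next genes after values were seen, was at 476, 189, 322 and 385 CPM in SC_SYN and at 101, 74.7, 123 and 110 CPM in SC_TH (1.69 ± 0.184), and Npy gave 1.73 ± 0.345. The vesicular GABA transporter Slc32a1 gave 1.34. The cytosolic GABA-synthesizing enzymes were lower, with Gad2 at 69.3, 85.6, 67.8 and 73.1 CPM in SC_SYN and at 130, 114, 123 and 99.3 CPM in SC_TH (-0.66 ± 0.119) and Gad1 at -0.45 ± 0.131, whose call was lost without mouse 189. The transcription factor Lhx6 was lower as well (-1.19 ± 0.197).

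Values over all genes tested ran from -8.45 to 4.53. Among genes with an adjusted p under 0.05, a regular symbol, at least 50 mean counts in the higher group and no overlap between groups, the 12 largest increases were those of Crybb1 (2.32 ± 0.169), Gfap, Serpina3n (2.29 ± 0.22), Arhgap30 (2.26 ± 0.242), Aif1, Tyrobp, mt-Nd3, Cideb (2.21 ± 0.204), Ppp1r3c, Ezr, Kif5a and Cck. Crybb1, known in brain from microglia, was at 18.6 to 27.3 CPM in SC_SYN and at 3.20 to 5.63 CPM in SC_TH, and Serpina3n, a protease inhibitor of reactive astrocytes, at 21.2 to 26.4 CPM and 3.45 to 6.58 CPM. Within the same limits, the 12 largest decreases lay between -5.13 and -3.67. Besides Ftx, Meg3, Miat and Cldn5 they were Cd200r3, Spaca6, Tmem72, Grk1, the noncoding RNAs Lncpint and Kcnq1ot1, Ap1s3, and Snhg11. The annotation used here lists Snhg11 as protein-coding. Cd200r3 was at 0.392 to 1.57 CPM in SC_SYN and at 16.9 to 23.9 CPM in SC_TH (-4.56 ± 0.271). Spaca6, known for sperm, was at 1.96 to 3.72 CPM against 44.1 to 53.8 CPM, and Grk1, known for photoreceptors, at 1.37 to 2.29 CPM against 25.02 to 32.7 CPM. Cideb is overlapped by the more abundant antisense gene Nop9.

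Input of the same mice shows the RNA of the compartments before ribosomes were pelleted. In input, 5550 of 17860 genes (31.1%) were higher in SYN and 6882 (38.5%) lower. Across 16472 genes tested in both, fold changes of pellets and input had a Spearman rho of 0.843, a description over genes that share mice and composition. Of 8554 genes called in both, 8386 had the same direction, 71 were higher in pellets and lower in input, and 97 the reverse. The difference of the fold changes was then tested as an interaction. It was higher in pellets for 1138 of 18112 genes (6.28%) and lower for 2320 (12.8%), which became 1530 and 1888 under library size scaling. Without a filter on low counts the larger side turned, with 1752 higher and 1609 lower. The total of 3458 genes was 2132 without mouse 187 and 2267 without mouse 190. The lower side held many genes of synaptic lists and of other lists. Over deciles of coding genes ordered by mean CPM, the median of pellet minus input was 0.33 in decile 1 and -0.30 in decile 10. What part the level of expression had in the values of the lists was not tested. Of 47 vesicle release genes 32 had a lower ratio in pellets than in input and none a higher one, with per-mouse medians of pellet minus input averaging -0.48 ± 0.07 (SD, n = 4). In input the list median was 0.51 ± 0.04. The counts were 20 lower and 1 higher of 39 for channels and pumps, 19 and 1 of 41 for postsynaptic genes, 23 and 0 of 37 for cortical neuron transcription factors, and 16 and 2 of 34 for the cytoskeleton. They were 16 and 2 of 46 for ER genes, 14 and 2 of 54 for proteasome and chaperones, and 14 and 3 of 48 for translation factors. Syp had the widest gap among the vesicle genes named, with log2 fold changes of 2.68 in input and 1.58 in pellets. Astrocyte markers, with 7 higher and 5 lower of 40 and a mean of 0.10 ± 0.05, stayed near the ratio in input.

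Mitochondrially encoded mRNAs lay on the other side. Mitochondrially encoded genes held 2.11% to 3.31% of the counts in TH input and 2.47% to 3.21% in SYN input. In pellets they held 0.438% to 0.520% in SC_TH and 0.941% to 1.24% in SC_SYN. Their share was thus lower in pellets than in input in both compartments. As a ratio of SYN to TH, the list of these mRNAs was at 0.23 ± 0.24 in input and at 1.53 ± 0.46 in pellets. Pellet minus input was 1.00 ± 0.28, and the interaction was called higher for 5 of 13 genes and lower for none. The largest values were those of mt-Atp8 (5.11 ± 0.888) and mt-Nd3 (3.09 ± 0.512). mt-Nd3 had log2 ratios of -1.17, -0.60, -0.47 and -1.28 in input and of 1.79, 2.49, 2.00 and 2.47 in pellets. mt-Atp8 overlaps mt-Atp6 and had a mean of 8.25 counts in SC_SYN, so its values rest on few reads. Eef1a1 had a higher ratio in pellets too (0.73 ± 0.119), and 7 of 32 vessel genes were higher and none lower. Arhgap4 (2.82) overlaps the far more abundant L1cam, and Rpph1, the RNA of RNase P, had 2.75. The lowest values were those of Cd200r3 (-3.70), Bbof1 (-2.70, on a mean of 0.75 counts in SC_SYN), Nap1l2 (-1.92) and Rnu2-10 (-1.86). Nap1l2, a histone chaperone gene of neurons without introns, had log2 ratios of 1.08, 1.56, 1.47 and 1.39 in input and of -1.49, -0.17, -0.02 and -0.53 in pellets.

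**Figure D5:**
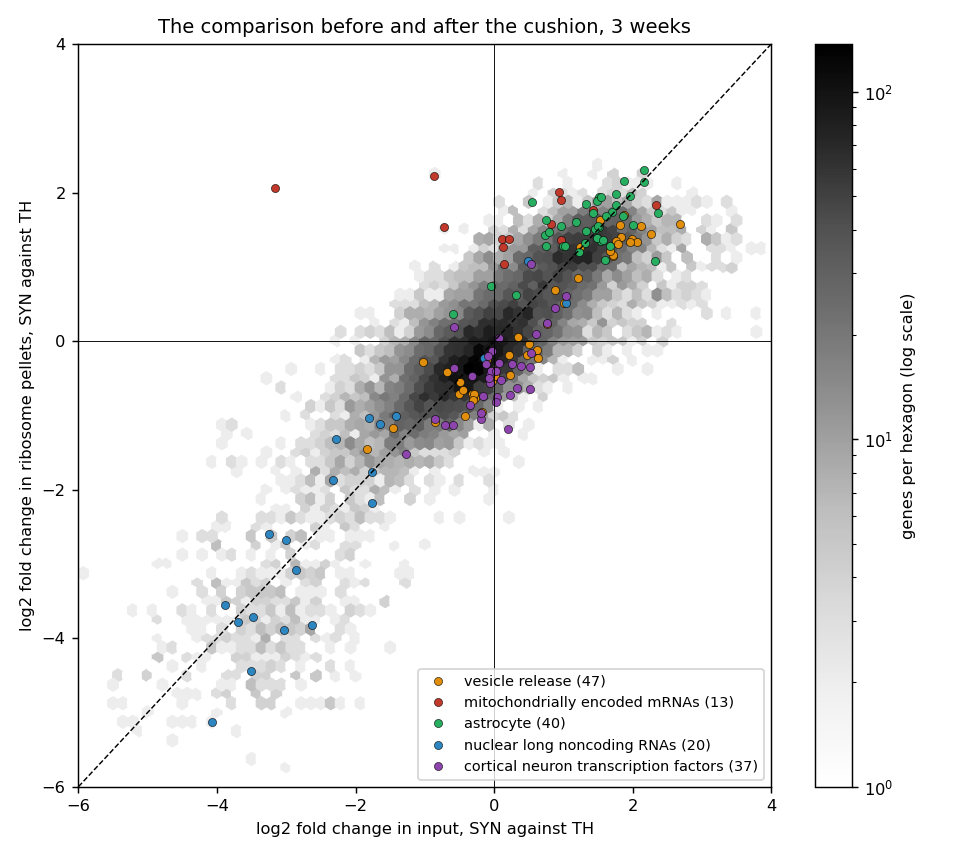
Log2 fold change of SYN against TH at 3w in input (horizontal axis) and in ribosome pellets (vertical axis) for 16472 genes as shaded hexagons, of which 208 genes lie outside the axes, with the genes of 5 lists as coloured points and a dashed line of equal values. Points of vesicle release and of transcription factors lie mostly below the line, mitochondrially encoded mRNAs above it and astrocyte markers along it.

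The ratio of SC_SYN to SC_TH at 3w was last set against that of older mice, which share the fit but no library with it. Both age comparisons share the 3w libraries. SC_TH totals were 3058278 to 7119395 counts at 3w, 5992223 to 13484631 at 5m and 9612408 to 15423546 at 18m, and their part in the differences was not tested. At 5m the ratio was higher than at 3w for 10 of 16630 genes (0.0601%) and lower for none in edgeR's test, with 1255 genes at an unadjusted p under 0.05. DESeq2 called 52 higher and 4 lower, and leaving out any mouse of either age left 2 to 6 genes in edgeR. The largest were Mfrp (3.20 ± 0.533), Ttr (3.12 ± 0.369), Kl (2.097 ± 0.242) and Clic6 (2.05 ± 0.329), all known from the choroid plexus, which makes cerebrospinal fluid. For Ttr, the log2 ratios were -1.35, -1.96, -1.92 and -2.39 at 3w and 0.81, 0.88, 2.08 and 1.12 at 5m. Its input ratios at 3w ranged from -2.66 to 0.70 among the mice. Mfrp overlaps the more abundant antisense gene Rnf26.

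At 18m the ratio was higher than at 3w for 684 genes (4.11%) and lower for 382 (2.3%), in all 1066 genes. Leaving out a mouse gave 252 genes without mouse 187, 617 without 188, 584 without 190, 352 without 195 and 560 without 197. With a mouse left out, the higher side held 214 to 665 genes and the lower side 38 to 440. The lower side was 38 without mouse 187, 55 without 195, 89 without 190 and 113 without 198. The list counts that follow are of the fit with all mice. Of 20 nuclear long noncoding RNAs 10 had a higher ratio at 18m and none a lower one, and the mean of the per-mouse list medians was -1.30 ± 0.14 at 18m against -2.38 ± 0.39 at 3w. Malat1 had log2 ratios of -3.58, -2.89, -2.65 and -3.24 at 3w and of -0.21, -1.06, -0.78 and -0.10 at 18m, a difference of 2.55 with an adjusted p of 0.0014. The other largest increases were those of Slc4a5 (3.05) and Mfrp (2.76), of the choroid plexus, and of Cd200r3 (2.70). Of the 12 erythrocyte and choroid plexus genes 7 were higher. Among synaptic lists, 13 of 41 postsynaptic genes had a higher ratio at 18m and none a lower one, with a mean list median of 0.36 ± 0.16 against -0.03 ± 0.13. Shank1 was among them (1.10). Vesicle release genes gave 1 higher and 2 lower of 47. Lower ratios at 18m were called for 14 of 32 oligodendrocyte genes, 17 of 76 nuclear respiratory chain genes and 7 of 35 neuropeptide genes. Means of the list medians at 18m against 3w were 0.37 ± 0.20 against 1.12 ± 0.17, 0.13 ± 0.03 against 0.62 ± 0.10, and 1.21 ± 0.10 against 1.66 ± 0.05 (SD, n = 4 mice each). The largest decreases were those of Hist1h1b (-1.61), Cpxm1 (-1.47), Hist1h3c (-1.46) and Nipsnap3b (-1.43). The class with a hydrophobic segment near the N terminus had a median of 1.02 ± 0.07 at 3w, 1.01 ± 0.03 at 5m and 0.76 ± 0.12 at 18m, with no overlap between 3w and 18m mice.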

How the data were processed

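RNA of TH and SYN from the cortex of 12 mice was sequenced before (input) and after the sucrose cushion (SC), giving 48 libraries, of which the 8 SC libraries at 3w are reported. Per the labels and methods, the authors prepared directional, rRNA-depleted libraries with UMI adaptors, sequenced them in NovaSeq runs that the labels do not assign to libraries, aligned reads with TopHat2 2.1 to GRCm38 and counted them per gene with featureCounts without strand. Use of UMIs against duplicates is not given in the sources used here. The deposited values are raw counts for 48526 genes. All 48 columns were mapped to samples. GENCODE M21 gave names to 48144 genes, and the others held 0.0596% of the counts. Of the genes the text may name, 67 of 136 overlap another gene, 12 of them a more abundant one, and their counts are uncertain.

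Differences were tested in edgeR (version 4.0.16 under R 4.3.3; glmQLFit and glmQLFTest, TMM, filterByExpr, mouse as block, Benjamini-Hochberg, threshold 0.05). SC_SYN against SC_TH was fitted over 24 SC libraries, input likewise over 24, and pellet minus input as an interaction over all 48. Age was tested as an interaction with compartment in the SC fit. The 4 libraries of a mouse come from the same animal, so they are paired by design. Deviations of SC_SYN and SC_TH from their group means correlated at -0.184 to 0.337 within a mouse. Between different mice they correlated at -0.349 to 0.322, a range that overlaps widely. Separate mice are the replicates. Log2 ratios of single mice use a prior count of 2, and their medians over a list are given as mean ± SD. SE are of the fitted log2 fold change.

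Named genes are, per direction, the 12 with the largest fold change that passed the threshold with at least 50 mean counts in the higher group, a regular symbol and no overlap, the 2 highest and 2 lowest members of each list, 6 genes of the qPCR table, and the 4 largest in each direction of each interaction. Others are said to be chosen later. The members and lists were chosen with earlier results of these data known, so no p over a list is given. Hydropathy used GENCODE M21 coding sequences. Alternatives were the block, 3w libraries alone, library size or RLE scaling, DESeq2 1.42.0, filters, thinning, no mitochondrial or only coding genes, loess trends (span 0.5) and each mouse left out. The code was tested on simulated data. Counts limit precision most for genes at few counts per library, where SE are widest. Some genes that the rule names are not reported here.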

Additional observations from a re-analysis of the deposited data

Results flagged for a closer look

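In groups of 4 mice, the CPM of Grk1 in SC_SYN stood apart in mouse 188, at 1.37 against 2.16 to 2.29 in the other 3 mice. It was 1 of 101 groups examined by Dixon's criterion, which chance alone meets in about 5% of groups. All 4 values lay far below those of SC_TH.

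The SYN to TH ratio differed between pellets and input, by the test of the interaction, for 3458 genes. The named genes with the largest differences were mt-Atp8 (5.11), mt-Nd3 (3.09), Arhgap4 (2.82) and Rpph1 (2.75) on the higher side and Cd200r3 (-3.70), Bbof1 (-2.70), Nap1l2 (-1.92) and Rnu2-10 (-1.86) on the lower side, as log2 differences of pellet minus input. The SC ratio differed between 5m and 3w for 10 genes, which include Mfrp (3.20), Ttr (3.12), Kl (2.097) and Clic6 (2.05). It differed between 18m and 3w for 1066 genes, which include Slc4a5 (3.05), Mfrp (2.76), Cd200r3 (2.70) and Malat1 (2.55), higher at 18m, and Hist1h1b (-1.61), Cpxm1 (-1.47), Hist1h3c (-1.46) and Nipsnap3b (-1.43), lower at 18m.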

How the results depend on the processing

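The count of genes that differed between SC_SYN and SC_TH at 3w stayed between 8212 and 12087 over all alternatives run. Without the replicate block it was 10558, and the pairing changed no call of the named genes other than those of Arc and Fmr1 (adjusted p = 0.0849 and 0.0547 without it). The paired count at 5m went from 10 to 5 without the block. It was 56 in DESeq2, 141 without a filter, 6 with at least 10 counts in every library, and 2 to 6 with a mouse left out. At 18m, 1066 genes became 1902 without a filter and 252 to 1030 with a mouse left out, lowest without mouse 187. The input count was 7713 with at least 10 counts, where fewer genes were tested, and the pellet against input count was 2132 to 2649 with a mouse left out. Library size scaling turned the list medians of active zone (-0.0629), respiratory chain (-0.000323), cytoskeleton (-0.44) and immature neuron (-0.42) genes. It also turned list medians that lay within the spread between mice, those of histones (-0.23), translation factors (-0.49) and mitochondrial ribosomal proteins (-0.47). The values of Rps15a (-0.50), Cacna1d (-0.48), Kcna4 (-0.0466), Cycs (-0.54) and Uqcrc2 (-0.53) turned as well. That scaling lowers the median over all genes. The 10-count filter turned cytoskeleton (-0.0225) and immature neuron (-0.0285) medians, thinning turned the latter (-0.0173), the mean in place of the median turned vesicle release (0.24), and removal of GC and length trends turned Ermn (1.07) and Fmr1 (0.70). The cause of these was not tested. Counts of at least 2-fold changes went from 5673 to 3100 with the 10-count filter. Under alternatives, 1946 of 1996 values of named genes kept their call and, where called, their direction. Genes without a call in either fit are counted here even where the sign turned, as for Igf1 (-0.16) under library size scaling. Removal of trends kept the adjusted p of the main fit, so it could turn a value but not lose a call. Of 508 list medians 84 moved beyond the spread between mice and 8 reversed, and 15 of 68 segment class medians moved. Medians that changed sign from a value within that spread are not among the 8. Every alternative named in the methods was run.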
